A study of Danio rerio with 4 samples.

Results

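The genes described here are 5 genes of Notch signalling in the zebrafish retina, the ligand genes *dla*, *dlb* and *dld* and the target genes *her4.2* and *hey1*. They were chosen by name and looked up in the gene column of all 6 deposited tables, which together listed 2075 different genes. RNA of the whole retina was sequenced from 10 months old fish, all labelled wild type, that were uninjured, 12 hours past a retinal injury (12 hpi), 4 days past it (4 dpi), or 4 days past it after a bath in 100 µM valproic acid (4 dpi + VPA) over those 4 days. Valproic acid (VPA) inhibits histone deacetylases, and the sources used here do not give the kind of injury. There is 1 GEO sample per group, while the series' design text speaks of duplicates. The authors deposited 1 value per group, taken here as pooled over the duplicates. Without replicate values, no difference below could be checked against replicates here. The tables list a gene only where the authors' p was at most 0.05 and the higher group was above 1 FPKM (fragments scaled for transcript length and library size).

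Notch signalling passes between cells that touch. A Delta ligand on 1 cell binds a Notch receptor on its neighbour, the receptor is cleaved, and its inner part enters the nucleus and, with the DNA-binding protein Rbpj, switches on genes of the *her* and *hey* families. The proteins of these families repress genes that drive cells to become neurons, so that Delta-bearing cells tend to differentiate while their neighbours stay progenitors or glia. In the fish retina, Müller glia and the progenitors that arise from them after injury are known to use this pathway.

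Each of the 5 genes was listed in 1 comparison, and 4 of the 5 were listed higher at 4 dpi. The share of all listed genes found in only 1 comparison was not counted, so this is not read as a trait of the members. The ligand genes *dla*, *dlb* and *dld* and the target gene *her4.2* stood below 0.5 FPKM in uninjured retina and between 6.45 and 7.62 FPKM at 4 dpi. The target gene *hey1* was listed at 12 hpi only, and there it was lower, with 1.01 FPKM against the 7.10 FPKM of uninjured retina. At 4 dpi + VPA, 0 of the 5 were listed in either direction. As background, 60.3% of all genes listed at 4 dpi were listed higher and 39.7% lower, with 63.6% higher and 35.6% lower at 12 hpi and 57.4% higher and 42.4% lower at 4 dpi + VPA. These shares are over the genes listed in that comparison. Of the 2075 genes listed in any comparison, 865 were higher at 4 dpi and 213 lower at 12 hpi. In either direction, 599 of the 2075 were listed at 12 hpi, 1434 at 4 dpi and 1036 at 4 dpi + VPA. The sources used here do not give the number of genes tested, so a gene that is not listed either missed the authors' filter or was not measured.

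**Figure D1:**
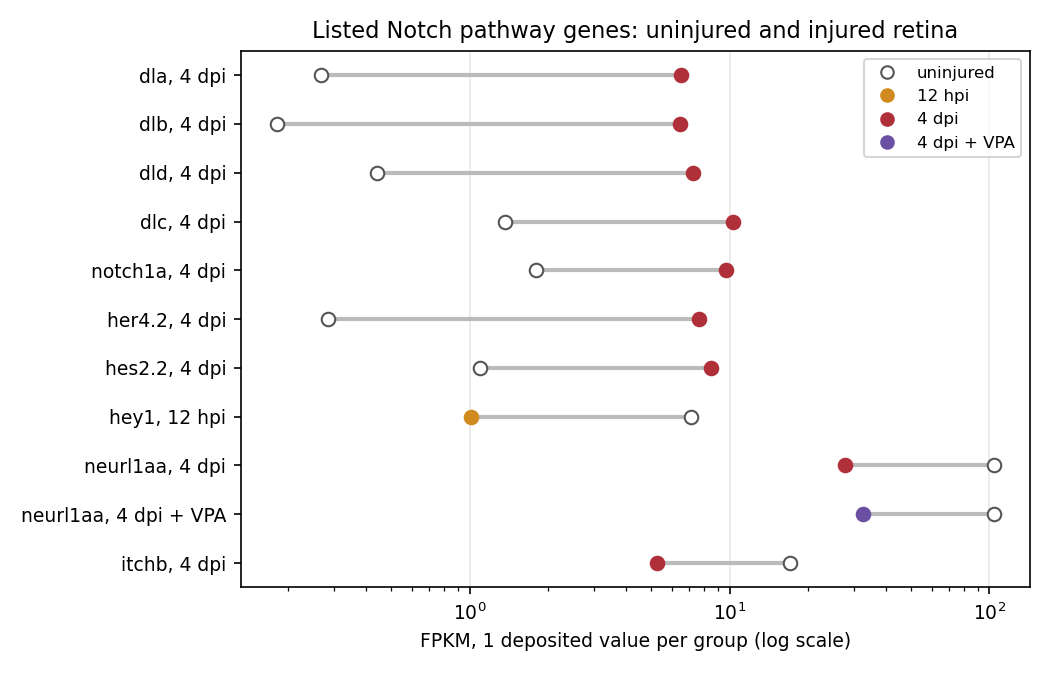
FPKM (x axis, log scale) of every listed gene of the Notch pathway list, by comparison (y axis); open points are uninjured retina and filled points the injured group, 1 deposited value each. The 3 Delta members and *her4.2* move from below 0.5 FPKM to between 6.45 and 7.62 FPKM, and *hey1* moves the other way at 12 hpi.

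The first question was how the Delta ligands stood at 4 dpi, the time at which retinal progenitors divide in the regenerating fish retina. *dla*, a Delta ligand of early neural precursors, had 0.269 FPKM in the uninjured group and 6.51 FPKM at 4 dpi. In the authors' deposited table this is 24.2-fold, or 4.60 on the log2 scale, with p = 0.0205 and q = 0.999. The SE of that log2 value, obtained by dividing it by the deposited statistic, was 1.48. *dlb*, a second Delta ligand, was the lowest of the members in uninjured retina, at 0.181 FPKM, and was at 6.45 FPKM at 4 dpi. The authors' deposited table has it 35.6-fold higher, or 5.16 on the log2 scale (SE 1.94), with p = 0.0486 and q = 0.999. Of the 5 members *dlb* had the largest fold and the p nearest to the authors' limit.

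*dld*, a Delta ligand also known from somite formation in the fish embryo, had 0.439 FPKM in the uninjured group and 7.26 FPKM at 4 dpi. That is 16.5-fold, or 4.05 on the log2 scale (SE 1.14), with p = 0.0158 and q = 0.999 in the authors' deposited table. Of the 3 Delta members, *dld* was thus the highest in both groups and had the smallest fold. From the lowest, the order of the levels was *dlb*, *dla*, *dld* in both groups, but the levels at 4 dpi lay within 1.12 times of each other, those in uninjured retina within 2.42 times, and with 1 value per group neither order has a spread to be read against.

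*her4.2*, a gene of the Hes5-related *her4* cluster that is switched on by Notch in neural progenitors and radial glia of fish, had 0.286 FPKM in the uninjured group and 7.62 FPKM at 4 dpi. That is 26.7-fold, or 4.74 on the log2 scale (SE 1.56), with p = 0.0409 and q = 0.999 in the authors' deposited table. Its level at 4 dpi was the highest of the members, next to that of *dld*. The *her4* genes are near-identical tandem copies. RefSeq (GRCz12tu) holds 5 of them on 1 chromosome, and the span of *her4.1* overlaps that of *her4.2* there. Only *her4.2* was listed and the other 4 were not, and the sources used here do not say how reads shared by the copies were divided, so the value belongs to *her4.2* with that uncertainty.

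The folds of the 4 members at 4 dpi could not be told apart. Over the 6 pairs, the largest difference in log2 fold change was 1.11, between *dlb* and *dld*, against a combined SE of 2.25. The authors' p-values imply a larger error than this SE, being larger than a normal distribution gives at the same test statistic. They were so by 6.13 times for *dlb*, 10.9 times for *dla*, 16.7 times for *her4.2* and 41.7 times for *dld*. With an SE that matches the p-value instead, the 95% interval of the log2 fold change was 0.71 to 8.49 for *dla*, 0.033 to 10.3 for *dlb*, 0.76 to 7.34 for *dld* and 0.20 to 9.28 for *her4.2*. These intervals assume a normal distribution and rest on the authors' error model for values taken as pooled. Whether the statistic or the p-value carries the better error was not tested.

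**Figure D2:**
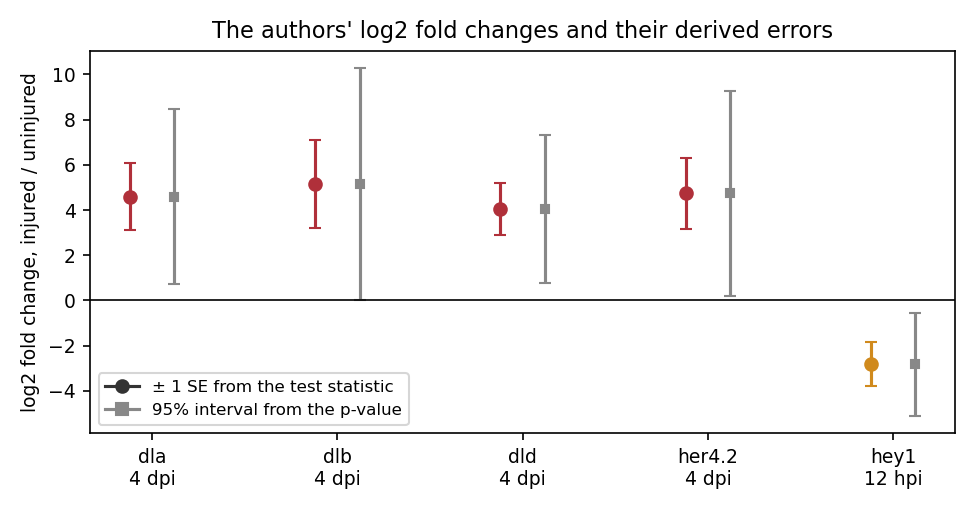
The authors' log2 fold change (y axis) of each member in the comparison that listed it (x axis); coloured circles carry ± 1 SE from the test statistic and grey squares the 95% interval that the p-value implies. The 4 genes at 4 dpi overlap fully, the interval of *dlb* starts at 0.033, and *hey1* lies below 0 at 12 hpi.

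Set among all genes listed higher at 4 dpi, the members had folds and p-values above the median, and how far above depended on the pseudocount. Of the 780 entries with a finite fold change there, *dlb* ranked 47, *her4.2* 75, *dla* 87 and *dld* 133 by size of the change, where the median log2 fold change was 2.61. With a pseudocount of 1 FPKM the log2 changes of the 4 were between 2.52 and 2.74 beside a median of 2.07, and they ranked between 193 and 252 of the 865 genes listed higher. By p, *dld* ranked 457, *dla* 528, *her4.2* 786 and *dlb* 878 of 893 entries, where the median p was 0.0152. All 4 were at least 4-fold higher at a pseudocount of 0.1 FPKM, as were 692 of the 865 genes listed higher, which is 48.3% of all genes listed at 4 dpi. Genes this low in uninjured retina could be listed higher only by passing 1 FPKM at 4 dpi, so the filter partly fixed their folds and fold ranks. Among entries listed higher within 1.5 times the same uninjured level, 35 of 53 did not pass *dla* at 4 dpi. For *dlb* it was 24 of 32, for *dld* 62 of 91 and for *her4.2* 41 of 55. None of the 4 was among the 40 entries that the authors marked significant in the higher table. Levels at 4 dpi were low among the entries listed higher, whose median there was 16.2 FPKM. Between 25.2% and 29.7% of those entries stood below these 4 genes at 4 dpi.

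**Figure D3:**
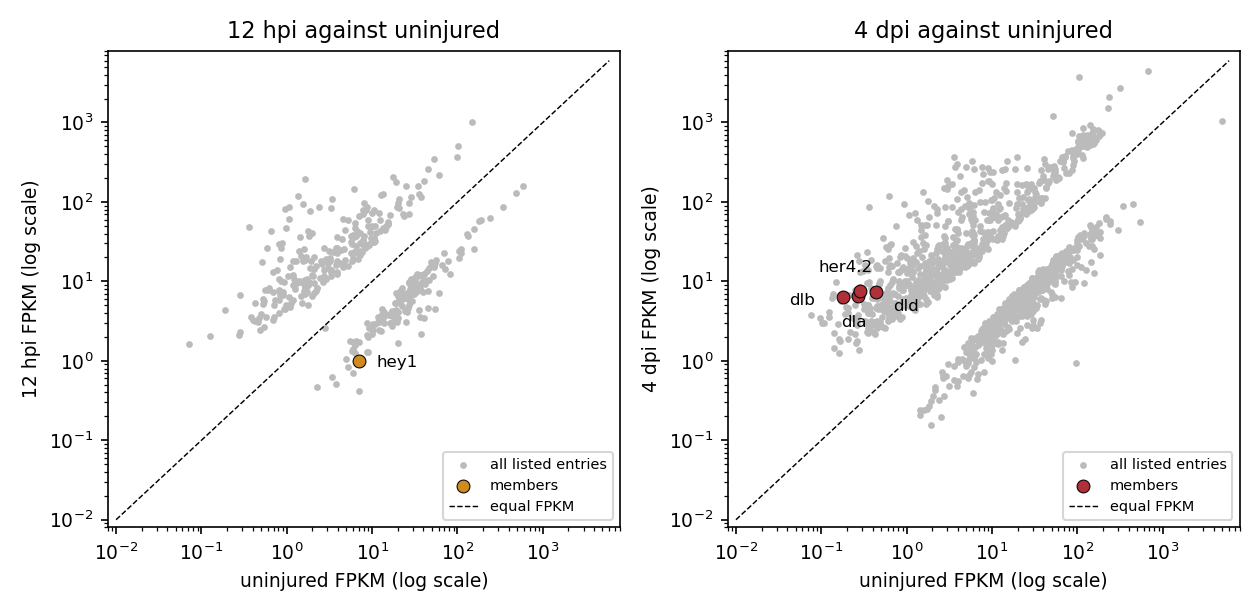
FPKM after injury (y axis) against FPKM in uninjured retina (x axis), both on log scales, for the entries listed at 12 hpi (left, 409 drawn) and 4 dpi (right, 1337 drawn); entries under 0.01 FPKM in either group are not drawn, and the dashed line marks equal values. The 4 members at 4 dpi lie together at the low end of the uninjured levels, and *hey1* lies below the line at 12 hpi.

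The early time was the other comparison with a member. *hey1* encodes a transcriptional repressor that acts downstream of Notch and is known from blood vessels and from the nervous system. It was 7.05-fold lower at 12 hpi, or -2.82 on the log2 scale (SE 0.97), with p = 0.0156 and q = 0.997 in the authors' deposited table, and the 95% interval that matches the p-value ran from -5.10 to -0.53. Among the 194 finite entries listed lower at 12 hpi, *hey1* ranked 47 by size of the change. At a pseudocount of 0.1 FPKM its log2 change was -2.70, beside a median of -2.13 over the genes listed lower. By p it ranked 54 of 225 entries, where the median p was 0.0307. *hey1* was at least 4-fold lower at that pseudocount, as were 130 of the 213 genes listed lower, which is 21.7% of all genes listed at 12 hpi, and the authors marked 0 transcripts significant there.

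The 12 hpi and 4 dpi + VPA tables hold values for single transcripts and the 4 dpi tables values for genes, and this bears on which members could be listed where. In the deposited annotation *dla*, *dlb* and *her4.2* had 3 annotated transcripts each, and *dld* and *hey1* had 1 each. For genes with 1 annotated transcript both levels gave the same number: all 364 such genes listed at both levels had identical uninjured FPKM values. For genes with several, the value of the most abundant listed transcript equalled the gene value in 80 of 377. The values of *dla*, *dlb* and *her4.2* at 4 dpi are therefore sums over transcripts, and whether their absence from the transcript tables reflects a lower level or the split over transcripts cannot be told apart. For *dld* and *hey1* no split over transcripts arises, but p-values and injured levels were not compared between genes and transcripts.

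For these 2 genes, the entries that started from a similar uninjured level show what the tables did list. Within 1.5 times the uninjured level of *dld*, 91 other entries were listed higher at 4 dpi, with a median of 5.22 FPKM there, and 53 were listed higher at 4 dpi + VPA, with a median of 4.80 FPKM there. At 12 hpi there were 19 such entries, with a median of 5.24 FPKM. The 7.26 FPKM that *dld* had at 4 dpi was not passed by 62 of the 91 entries at 4 dpi, 43 of the 53 at 4 dpi + VPA and 13 of the 19 at 12 hpi, so entries as low in the uninjured group were listed in all 3 comparisons at levels below it. Within 1.5 times the uninjured level of *hey1*, 99 entries were listed lower at 4 dpi, the highest at 3.56 FPKM there, and 95 at 4 dpi + VPA, the highest at 4.04 FPKM there. The authors' error differs by gene, so these levels set no limit on *dld* or *hey1* in the comparisons that did not list them. The tables used here do not compare 4 dpi with 4 dpi + VPA directly, and all 3 comparisons share the uninjured group.

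**Figure D4:**
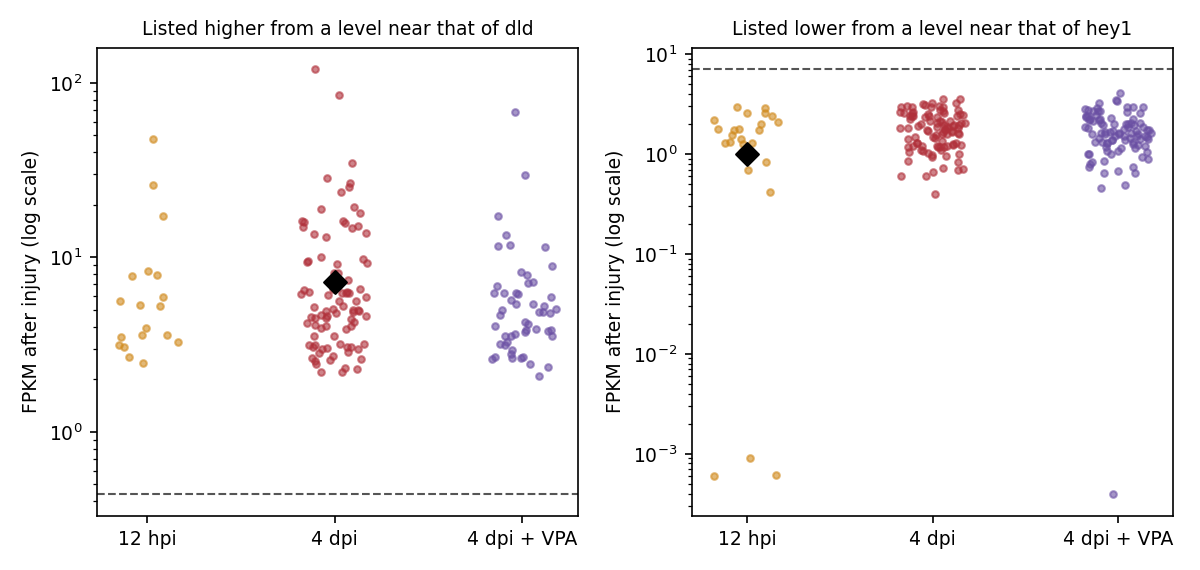
FPKM after injury (y axis, log scale) of entries whose uninjured level lay within 1.5 times that of *dld* (left, listed higher) or *hey1* (right, listed lower), by comparison (x axis); the diamond is the member, the dashed line its uninjured level, and 4 entries of the right panel at 0 are not drawn. The diamond of *dld* lies within the spread of entries at 4 dpi, and that of *hey1* within that at 12 hpi.

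The rest of the pathway was read from a list of 79 genes, of which 10 were listed in any comparison and 69 in none. At 4 dpi, 7 genes of the list were higher and 2 lower. The median log2 change of the 9, at a pseudocount of 0.1 FPKM, was 2.85. Over all genes listed at 4 dpi it was 1.93, but both medians mix higher and lower genes. Among the genes listed higher the median was 2.66. The 7 include the 4 members, which were known to be listed when the list was written, so the count and the median are not evidence on the pathway. At that pseudocount the log2 changes of the others were 2.83 for *dlc*, 2.85 for *hes2.2* and 2.37 for *notch1a*. For *itchb* and *neurl1aa* they were -1.67 and -1.91. At 12 hpi 1 gene of the list was lower, *hey1* itself, and at 4 dpi + VPA 1 gene was lower.

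Among 12 ligand genes, 4 were listed, all higher at 4 dpi. The 3 Delta members were known to be listed when the list was written, so that count is not evidence on the ligands. The ligand that is not a member, *dlc*, had 1.36 FPKM in the uninjured group and 10.3 FPKM at 4 dpi. Its log2 fold change of 2.92 (p = 0.0148, q = 0.999) in the authors' deposited table was smaller than those of the 3 Delta members, and its level was the highest of the 4 ligands in both groups. *dlc*, *dla*, *dlb* and *dld* were also the only genes in all 6 tables whose deposited annotation holds the DSL domain, the part of a ligand that contacts Notch. *dla* and *dld* were further annotated with the N-terminal domain of Notch ligands and with the Notch signalling term, and *dlb* and *dlc* with neither. The Jagged genes and *dll4*, the Delta ligand of blood vessels, were not listed.

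Among 4 receptor genes, *notch1a* was listed, with 1.80 FPKM in the uninjured group and 9.70 FPKM at 4 dpi. Its log2 fold change was 2.43 in the authors' deposited table, and the SE derived from the test statistic was 3.25, larger than the change, beside p = 0.0259. The test statistic and the p-value of *notch1a* thus give very different errors, and its 4 annotated transcripts were not listed in the transcript tables.

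The listed genes for handling ligand and receptor were lower. *neurl1aa* belongs to the Neuralized family of ubiquitin ligases, which in Drosophila help to internalise Delta. It was at 104 FPKM in uninjured retina, 27.7 FPKM at 4 dpi and 32.5 FPKM at 4 dpi + VPA, and has 1 annotated transcript, so that both tables refer to the same quantity. It was the 1 gene of the list that was listed at 4 dpi + VPA, where the authors' deposited table gives -1.68 on the log2 scale (SE 0.81) with p = 0.0455 and q = 0.997. At 4 dpi the authors' deposited table gives -1.91 (SE 0.81) with p = 0.0269 and q = 0.999. *itchb*, a ubiquitin ligase gene whose mammalian counterpart acts on Notch, had 17.1 FPKM in uninjured retinae and 5.28 FPKM at 4 dpi. The other 24 of the 26 genes of this group, and all 9 genes of the nuclear complex with Rbpj and Mastermind, were not listed.

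Of 28 genes for targets and the wider *her* and *hey* families, 3 were listed. Beside *her4.2* and *hey1*, this was *hes2.2*, a Hes-related gene with 1 annotated transcript, with 1.09 FPKM in the uninjured group and 8.48 FPKM at 4 dpi. In the authors' deposited table its log2 fold change is 2.95, with p = 0.0381 and q = 0.999. The family genes *her6*, *her9* and *heyl* were not listed in any comparison. The 2 members that are Notch targets were therefore listed in opposite directions and in different comparisons, and no comparison listed both. *her4.2*, with 3 annotated transcripts, was listed by its gene value, and *hey1* by the value of a single transcript. Whether the split over transcripts kept *her4.2* out of the transcript tables was not tested. The share of all listed genes found in only 1 comparison was not counted either. The listing is therefore not read as an opposition of the 2 targets.

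**Figure D5:**
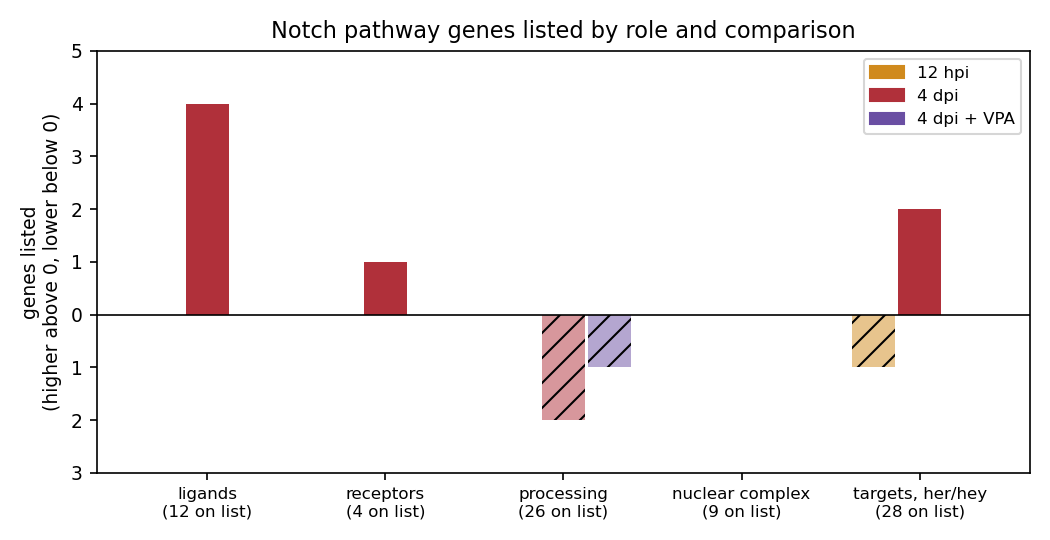
Number of genes listed (y axis, higher above 0 and lower below 0, hatched) for each role of the Notch pathway list (x axis, with the number of genes on the list), in 3 comparisons. The 4 ligands at 4 dpi are the largest count, but 3 of them are members known to be listed when the list was written. At 4 dpi + VPA there is 1 gene, listed lower. Listing rests on gene values at 4 dpi and on values of single transcripts in the other comparisons.

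The genes whose levels were most like those of each member were found by distance in log2(FPKM + 0.1) over the 2 groups of the table, so the likeness rests on 2 values. For *dla* these were *NUMA1*, at 0.270 and 6.59 FPKM, *ifit16* and *setd8b*. For *dlb* they were *mybl2b*, at 0.178 and 6.52 FPKM, *setd8b* and *ncapd3*. For *dld* they were *uhrf1*, at 0.448 and 6.98 FPKM, *ckap2l* and *NES*. For *her4.2* they were *ifit16*, at 0.278 and 7.05 FPKM, *dlgap5* and *anln*. These distances lay between 0.0191 and 0.254. For *hey1* they were *cyp19a1b*, at 6.36 and 1.25 FPKM, *CCDC39* and *phkg1b*, at distances from 0.324 to 0.458. The table searched for *hey1* held 225 entries and that for the others 893, so these distances are not comparable.

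Markers of other cell states were listed in the same comparisons. Levels at 4 dpi are those of genes, and levels at 12 hpi and 4 dpi + VPA those of single transcripts. In bulk retina, more cells of a type and more RNA per cell cannot be told apart. At 4 dpi, 10 of 15 genes of cell division were listed higher, among them *pcna* at 20.6 and 113 FPKM, and at 4 dpi + VPA 5 of 15. *pcna*, not listed at 4 dpi + VPA, has 2 annotated transcripts. Whether the smaller count reflects lower levels or the split over transcripts cannot be told apart. *mki67* and *mcm5* have 1 annotated transcript each and were listed in both comparisons. *mki67* was at 23.6 FPKM at 4 dpi and 6.22 FPKM at 4 dpi + VPA, and *mcm5* at 16.1 and 8.93 FPKM. The difference between these groups was not tested. Of 14 Müller glia markers, 4 were listed higher at 4 dpi and the same number at 4 dpi + VPA, with *gfap* at 10.2 FPKM in uninjured retina, 84.5 FPKM at 4 dpi and 46.3 FPKM at 4 dpi + VPA. *apoeb* was counted at 4 dpi + VPA through transcripts at 1.06 and 11.2 FPKM there and 0 in uninjured retina. Its gene value in uninjured retina was 234 FPKM. At 12 hpi 1 of the 14 was listed, the glutamate transporter gene *slc1a2b*. Like *hey1* it was lower there, with 16.0 FPKM against 66.0 FPKM in 1 of its 3 annotated transcripts. Of 17 genes on the proneural list, which holds proneural genes and other regulators such as the zinc finger gene *insm1a*, 5 were listed higher at 4 dpi. *olig2* was at 0.671 FPKM in uninjured retinae and 15.4 FPKM at 4 dpi, *atoh7* at 1.15 and 11.3 FPKM, *insm1a* at 2.83 and 35.0 FPKM, and *foxn4* at 0.453 and 4.87 FPKM. *ascl1b* was at 1.39 and 7.35 FPKM at 4 dpi and was the 1 gene of that list that was listed at 4 dpi + VPA, at 5.28 FPKM.

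Of 20 endothelial and pericyte markers, *cldn5a* and *cldn5b* were listed higher at 4 dpi, at 1.67 and 14.6 FPKM and at 0.786 and 13.2 FPKM, and the defining genes *kdrl*, *cdh5* and *pdgfrb* were not listed. At 12 hpi 0 of the 20 were listed beside the lower *hey1*, and 3 of the 20 symbols were not found in the reference tables. Of 10 red blood cell genes, 2 were listed, both higher at 12 hpi, *ba1* with 349.6 FPKM against 53.7 FPKM and *slc4a1a* with 2.68 FPKM against 0.540 FPKM. Levels at 12 hpi and 4 dpi + VPA here are those of single transcripts. *ba1* has 4 annotated transcripts, *slc4a1a* 3, and *rcvrna* and *grk1b* 2 each. Genes of lens, cornea and skin were listed higher in every injured group, 5 of 18 at 12 hpi and 6 of 18 at 4 dpi and at 4 dpi + VPA, and the crystallin gene *crygm3*, listed at 0 in the uninjured group, had 121, 39.3 and 304 FPKM in these groups. Photoreceptor genes among the listed ones match the labelled tissue, while the rod opsin gene *rho* was not listed. At 12 hpi, 1 of 13 rod markers was listed lower and 1 higher, and 2 of 14 cone markers were listed lower. Of the 14 cone symbols 1 was not found in the reference, as was 1 of the 10 red blood cell symbols. The recoverin gene *rcvrna* had 63.6 FPKM there against 237 FPKM in the uninjured group. The opsin kinase gene *grk1b* had 4.45 against 53.8 FPKM, and *guca1e* had 3.45 against 40.6 FPKM in its more abundant transcript. At 4 dpi + VPA *rcvrna* had 85.7 FPKM, and *guca1e* was lower in all 3 comparisons. The nuclear receptor gene *nr2e3* was higher in all 3, with 11.9 FPKM in the uninjured group and 72.3, 37.2 and 43.6 FPKM at 12 hpi, 4 dpi and 4 dpi + VPA. The part of all these cells in the values of the 5 members was not tested.

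On GRCz10, *dla* lies on chromosome 1 from 53353713 to 53402369 and *dlb* on chromosome 5 from 36093705 to 36101607, both on the plus strand. *dld* lies on chromosome 13 from 5947111 to 5953343 on the minus strand, *her4.2* on chromosome 23 from 21528600 to 21534589 on the plus strand, and *hey1* on chromosome 19 from 32210253 to 32214983 on the minus strand. All 5 are protein-coding genes on different chromosomes, with spans between 4.73 kb for *hey1* and 48.7 kb for *dla*. In the tables, 12 of 2114 intervals were given to more than 1 listed gene, so an interval can cover neighbouring genes. For the members, 0 other listed genes overlapped. Neighbours that were not listed, such as *her4.1*, could not be seen this way. Both target genes carry a basic helix-loop-helix domain and an Orange domain in the deposited annotation, which are marks of the Her and Hey repressors.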

How the data were processed

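RNA of whole retinae was sequenced. The submitters' processing notes name Cufflinks 2.2.1, TopHat2 2.1.0, Bowtie2 2.2.2 and the build GRCz10. The authors deposited FPKM values, 1 per group, with a log2 fold change that has no pseudocount, a test statistic (a score), a p-value and a q-value per entry, per the file headers. The deposited tables were filtered by the authors; the highest p listed was 0.05 and the lowest FPKM of the higher group was 1.00. The 4 dpi tables hold genes and the others transcripts. Sequencing depth is unknown from these files, so no counting interval could be given.

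No test of differential expression was run, since each group has 1 value; every p and q is the authors' own. Genes were counted by distinct name, with the entry of highest mean FPKM used for medians. The functions used were tested on simulated data. Python 3.11.15 and pandas 2.3.3 were used. The members and lists were chosen with earlier results of these data known. Named genes are the 5 members, every listed gene of the Notch and proneural lists, examples of the markers, and the 3 genes nearest to each member. Alternatives were other pseudocounts, stricter filters, summed transcripts and annotation in place of the list.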

Additional observations from a re-analysis of the deposited data

How the results depend on the processing

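Of 57 alternative values 34 kept their size, but some of the 34 could not move. The direction was not put to a test, since a pseudocount added to both groups cannot reverse a change and counts and shares have no sign. A pseudocount of 1 FPKM lowered the log2 change by more than its SE for *dla* (2.56), *dlb* (2.66), *dld* (2.52) and *her4.2* (2.74), whose uninjured levels lie below that pseudocount. The other 16 values for the members stayed within 1 SE. Those of them from summed transcripts could not move, because each member had 1 listed entry. Nor could the share listed higher move with a pseudocount of 1 FPKM, since the direction was taken without one. The medians of the listed Notch genes could not move when entries under 0.01 FPKM were left out, because none was that low. With the authors' p at most 0.01, and likewise with their significance mark, 0 genes of the Notch list were left in each comparison and direction. With the deposited GO term in place of the list, an alternative chosen after seeing the data, 3 genes were higher and 0 lower at 4 dpi, and 0 were lower at 4 dpi + VPA. The share of listed genes higher by at least 4-fold was 29.9%, 32.8% and 25.0% at 12 hpi, 4 dpi and 4 dpi + VPA with a pseudocount of 1 FPKM, and 47.7%, 43.6% and 36.8% with at least 5 FPKM in the higher group. That filter also put the share listed higher at 57.0% at 4 dpi and 53.8% at 4 dpi + VPA. No paired analysis was possible because each group has 1 deposited value, and for the same reason no replicate could be left out.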

Other observations

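Basic helix-loop-helix genes were counted from the deposited annotation, a group chosen after its values were seen. The annotation does not mark every such gene: *ascl1b*, listed higher at 4 dpi and at 4 dpi + VPA, is not counted here. At 4 dpi 6 were listed higher and 3 lower, near the shares of all genes listed there, 60.3% higher and 39.7% lower. Of all genes listed, 63.6% were higher at 12 hpi and 57.4% at 4 dpi + VPA. Beside *her4.2*, *hes2.2*, *olig2* and *atoh7*, the higher ones were the Myc family genes *mych*, at 0.950 and 20.7 FPKM, and *myclb*, at 6.22 and 30.1 FPKM. The lower ones were *npas4a*, an activity-dependent gene of neurons, at 5.30 and 0.610 FPKM, *srebf1*, a regulator of lipid synthesis, at 54.6 and 16.1 FPKM, and *bhlhe41*, a clock-related repressor that like the Her proteins has an Orange domain, at 37.4 and 13.7 FPKM. At 12 hpi *hey1* was listed lower together with *srebf1* and the clock genes *npas2*, at 33.1 and 7.31 FPKM, and *arntl1b*, at 17.0 and 4.26 FPKM, while 3 Myc family genes were higher. At 4 dpi + VPA the 3 so annotated that were listed higher were of the Myc family, among them *mych* at 17.3 FPKM and *myclb* at 48.3 FPKM. *npas4a* and *srebf1* were lower there. The GTPase gene *rras*, annotated in the tables with the Notch signalling term, had 0.971 FPKM in the uninjured group and 5.58 FPKM at 4 dpi.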
